A study of Mus musculus with 15 samples.

Results

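CC chemokines are small secreted proteins that draw leukocytes along a gradient, and CC chemokine receptors are the G-protein-coupled receptors that read them. The account here follows 6 ligand genes (Ccl2, Ccl3, Ccl4, Ccl5, Ccl6 and Ccl9) and 3 receptor genes (Ccr1, Ccr2 and Ccr7), 9 of the 23359 genes measured, taken by gene symbol and not by how they moved. Ligands of this class bind overlapping sets of receptors, so that a myeloid cell with Ccr1 can respond to Ccl3, Ccl5, Ccl6 and Ccl9, whereas Ccr2 is the main receptor of Ccl2 and Ccr7 that of Ccl19 and Ccl21. In the marrow the system is known for releasing monocytes into blood through Ccl2 and Ccr2, and Ccl3 is a known inhibitor of normal hematopoietic progenitors. In adipose tissue Ccl2 is a known recruiter of monocytes.

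RNA was sequenced from cells called leukemia stem cells (LSC), obtained from mice with blast crisis chronic myeloid leukemia made by expressing 2 human oncogenes together, BCR-ABL and NUP98-HOXA9. LSC were taken 12 days after leukemia cells had been transplanted, from gonadal adipose tissue (AT), from blood (BL), from spleen (SPL) and from the marrow (BM). The control was the counterpart of these cells in normal bone marrow (NBM). Each of the 5 groups held 3 libraries, from females labelled as 3 months of age. The labels give the NBM libraries the same strain, growth and treatment text as the LSC, and only the title, source, cell type and design text set them apart. No sorting gate is given for any group, no background strain is named, and nothing says that replicate libraries stem from different animals, so p-values may measure technical spread.

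All levels are the authors' FPKM, fragments scaled to transcript length and sequencing depth, as 1 pooled value per group with a lower and an upper bound that lie 2 standard deviations (SD) from it. A fold is the log2 ratio of the first group named over the second, and ± is the standard error (SE) implied by that fold and the authors' test statistic. A gene is said to be higher or lower, or to have passed, where the authors' q-value, adjusted over 127922 tests in 10 comparisons, was below 0.05. All 9 genes were tested in all 10 comparisons. In all, 46 of the 90 tests passed: 24 of 54 between LSC sites and 22 of 36 against NBM. Between sites, 1.19% to 10.5% of all tested genes were higher in a comparison and 1.5% to 23.1% lower. Against NBM, 6.37% to 11.5% of all were higher and 6.19% to 22.9% lower. The groups held between 8.96e+06 estimated counts in SPL LSC and 1.96e+07 in AT LSC, and the members' estimated counts ran from 22.1 for Ccl2 in SPL LSC to 76082 for Ccl6 in BL LSC. Folds of all tested genes were not centred on 0: their median was -0.48 for AT over BM LSC, -0.52 for AT over SPL LSC, -0.37 for BL over BM LSC and -0.40 for BL over SPL LSC. Results that differ when folds are taken relative to that median are given with both values where a call changed.

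The summed level of the 6 ligands was 261 FPKM in NBM, 419 in BM LSC, 286 in SPL LSC, 1191 in BL LSC and 988 in AT LSC. Ccl4 made up the largest share in both marrow groups, 34.8% in NBM and 32.8% in BM LSC. Ccl6 did so in the others, with 47.3% in SPL LSC, 62.4% in BL LSC and 38.3% in AT LSC. The sum of the 3 receptors stayed within 27.1 FPKM in SPL LSC and 75.6 in BL LSC. Among the 3, Ccr2 held the largest share in every group but AT LSC, where Ccr1 took 58.2%.

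**Figure D1:**
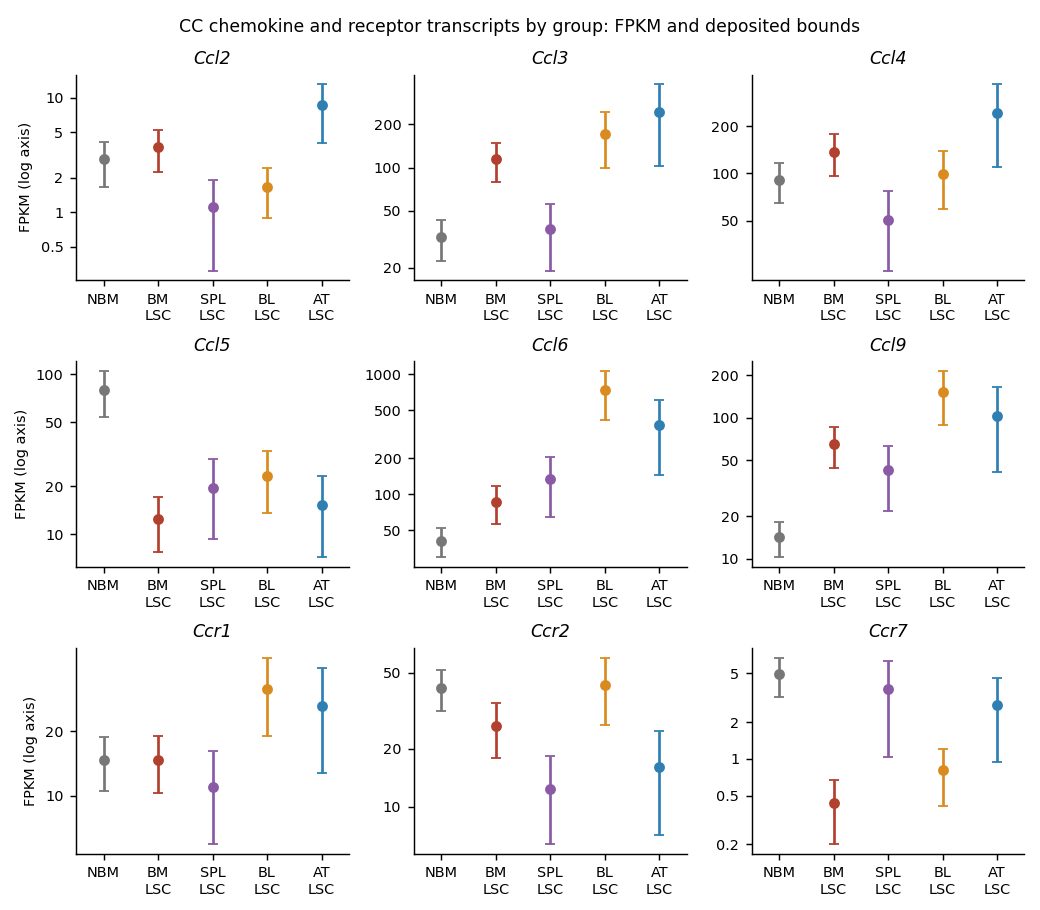
FPKM (log axis) of the 6 ligand and 3 receptor genes in the 5 groups; each point is the authors' pooled value of 3 libraries and each bar spans the deposited bounds. Ccl6 and Ccl9 lie lowest in NBM and highest in BL LSC, Ccl5 is highest in NBM, and Ccr7 is lowest in BM LSC.

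Ccl6 and Ccl9 are ligands of Ccr1 that mouse myeloid cells are known to make, and they lie side by side on chromosome 11. Both were higher in every LSC group than in NBM. On mm10 the Ccl9 entry spans chr11:83572917-83578636 on the minus strand, and the annotated Ccl6 gene spans chr11:83587882-83593087 on the same strand. The deposited Ccl6 entry is wider (chr11:83582061-83623693) and contains E230016K23Rik, an antisense gene with an entry of its own at 0.105 to 0.847 FPKM. The labels do not say whether counting used strand, and without strand the reads of both cannot be told apart.

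Promoter sequences from RefSeq (GRCm38.p6) were at hand for 5 of the 9 genes: Ccl3, Ccl6, Ccl9, Ccr1 and Ccr2. The 250 bases before the annotated start of 3 ligands of the cluster are shown, because these neighbours were all higher in BM, BL and AT LSC than in NBM in the authors' test. They are Ccl9 (chr11:83578637-83578886), Ccl6 (chr11:83593088-83593337) and Ccl3 (chr11:83649379-83649628), each 5′ to 3′ on the minus strand. Capitals mark matches, on either strand, to any of 6 motifs: NF-kB (GGGNNTTTC), AP-1 (TGANTCA), C/EBP (TTGCNNAA), PU.1 (GAGGAAGT), ISRE (GAAANNGAA) and the TATA box (TATAAA). Positions count back from -1, the base before the start.
Ccl9: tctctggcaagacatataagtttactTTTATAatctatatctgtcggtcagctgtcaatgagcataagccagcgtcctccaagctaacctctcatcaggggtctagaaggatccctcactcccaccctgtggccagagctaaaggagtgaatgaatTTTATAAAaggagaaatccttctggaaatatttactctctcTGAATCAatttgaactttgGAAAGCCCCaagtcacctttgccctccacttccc
Ccl6: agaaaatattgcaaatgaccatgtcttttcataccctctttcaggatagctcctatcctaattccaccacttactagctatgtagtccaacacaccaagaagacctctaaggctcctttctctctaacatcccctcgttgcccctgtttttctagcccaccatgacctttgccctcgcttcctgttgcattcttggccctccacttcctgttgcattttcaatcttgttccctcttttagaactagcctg
Ccl3: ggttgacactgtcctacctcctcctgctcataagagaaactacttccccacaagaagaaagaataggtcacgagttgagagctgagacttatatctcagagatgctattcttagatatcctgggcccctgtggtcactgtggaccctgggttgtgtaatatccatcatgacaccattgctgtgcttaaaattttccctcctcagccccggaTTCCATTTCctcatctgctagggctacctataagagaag
The Ccl9 window held an NF-kB match at -34 to -26, an AP-1 match at -53 to -47 and TATA box matches from -224 and, overlapping each other on opposite strands, from -94 and -92. Of all 32851 promoter windows of this length, 3.72% held the NF-kB letters, 6.75% AP-1 and 12.4% TATA. The Ccl6 window held none of the 6 motifs. The Ccl3 window held an ISRE match at -39 to -31, and the Ccr2 window held another at -86 to -78, against 7.13% of all windows. The Ccr1 window held none, and the shares of all windows for C/EBP and PU.1 were 9.56% and 2.44%. A match is a run of letters and not a shown binding site.

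Ccl6 stood at 40.8 FPKM in NBM, 86.6 in BM LSC, 135 in SPL LSC, 743 in BL LSC and 378 in AT LSC. NBM was lowest, and its upper bound of 52 lay under the lower bound of each LSC group, the nearest being 56.6 in BM LSC. In the authors' deposited table the fold over NBM was 4.19 ± 0.38 in BL LSC (q listed as 0), 3.21 ± 0.49 in AT LSC (q = 3.05e-09), 1.73 ± 0.43 in SPL LSC (q = 0.000665) and 1.08 ± 0.32 in BM LSC (q = 0.0056). The LSC sites also differed among themselves. In the authors' deposited table Ccl6 was higher in BL than in BM LSC by 3.10 ± 0.41 (q = 3.99e-12) and than in SPL LSC by 2.46 ± 0.50 (q = 1.82e-05). AT LSC exceeded BM LSC by 2.13 ± 0.51 (q = 0.000442), while AT against SPL LSC missed the threshold in the authors' deposited table (1.48 ± 0.58, q = 0.0515) and passed relative to the median gene (2.00, q = 0.00573). BL and AT LSC, neighbours at the top of the order, did not differ beyond their spread (q = 0.215 in the authors' deposited table), and neither did SPL and BM LSC (q = 0.356). Between its highest and lowest group Ccl6 differed 18.2-fold, the widest range of the 9 genes.

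Ccl9 was at 14.2 FPKM in NBM, 64.8 in BM LSC, 42.6 in SPL LSC, 152 in BL LSC and 102 in AT LSC. Here too NBM was lowest, with an upper bound of 18.2 below every LSC lower bound (21.9 in SPL LSC). Folds over NBM in the authors' deposited table were 3.42 ± 0.36 in BL LSC (q listed as 0), 2.85 ± 0.48 in AT LSC (q = 1.32e-07), 2.19 ± 0.31 in BM LSC (q = 1.25e-10) and 1.58 ± 0.40 in SPL LSC (q = 0.00112). BL LSC exceeded BM LSC by 1.23 ± 0.38 (q = 0.00869) and SPL LSC by 1.84 ± 0.46 (q = 0.000853) in the authors' deposited table. AT LSC did not differ beyond its spread from BL (q = 0.52), BM (q = 0.395) or SPL LSC (q = 0.0905) in the authors' deposited table, and only the last of these passed relative to the median gene (1.78, q = 0.0112). The ratio of Ccl9 to Ccl6 FPKM was 0.748 in BM LSC and 0.204 in BL LSC, with 0.348 in NBM, 0.315 in SPL LSC and 0.27 in AT LSC.

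Ccl3 and Ccl4 are the macrophage inflammatory proteins 1-alpha and 1-beta, attractants of monocytes and lymphocytes, and Ccl3 acts on Ccr1. Ccl3 spans chr11:83647843-83649378 on the minus strand and Ccl4 chr11:83662584-83664683 on the plus strand. Ccl3 stood at 32.8 FPKM in NBM, 114 in BM LSC, 37.2 in SPL LSC, 172 in BL LSC and 243 in AT LSC. NBM and SPL LSC were the low groups and overlapped (bounds 22.2 to 43.3 and 19.1 to 55.3), and the other three LSC groups lay above both. Its fold over NBM in the authors' deposited table was 2.89 ± 0.47 in AT LSC (q = 6.28e-08), 2.39 ± 0.38 in BL LSC (q = 2.07e-08) and 1.80 ± 0.32 in BM LSC (q = 6.22e-07), and it was 0.18 ± 0.42 in SPL LSC (q = 0.843). SPL LSC was lower than BM LSC (-1.62 ± 0.41, q = 0.0011 in the authors' deposited table). AT and BL LSC exceeded SPL LSC in the authors' deposited table by 2.71 ± 0.54 (q = 1.61e-05) and 2.21 ± 0.46 (q = 4.09e-05). The top of the order was not resolved in the authors' deposited table. AT against BL LSC had q = 0.576 and BL against BM LSC q = 0.286 in the authors' deposited table. AT against BM LSC missed the threshold there as well (1.09 ± 0.47, q = 0.0807). That fold passed relative to the median gene (1.57, q = 0.00739). It also passed when scaled to the upper quartile (1.67, q = 0.00357) or to total counts (1.40, q = 0.0188). BL over BM LSC passed under upper quartile scaling alone (1.06, q = 0.0266).

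Ccl4 was less variable, at 90.9 FPKM in NBM, 137 in BM LSC, 50.7 in SPL LSC, 99 in BL LSC and 241 in AT LSC. AT LSC was highest and SPL LSC lowest, and no neighbours in the order of the 5 groups differed beyond their spread. Only AT LSC differed from NBM in the authors' deposited table, by 1.41 ± 0.44 (q = 0.0107). AT LSC also exceeded SPL LSC by 2.25 ± 0.54 (q = 0.000523) and BL LSC by 1.28 ± 0.49 (q = 0.0422) in the authors' deposited table. SPL LSC was lower than BM LSC (-1.44 ± 0.43, q = 0.00757 in the authors' deposited table). The fold of SPL LSC over NBM (-0.84 ± 0.43, q = 0.161 in the authors' deposited table) passed when scaled to the upper quartile of FPKM above 0 (-1.26, q = 0.0226) or to total counts (-1.12, q = 0.0497). Relative to the median gene AT over BM LSC (1.29, q = 0.0258) and BL over SPL LSC (1.36, q = 0.0275) passed as well, from 0.81 ± 0.45 (q = 0.202) and 0.97 ± 0.48 (q = 0.143) in the authors' deposited table. Ccl4 exceeded Ccl3 by 2.77-fold in NBM in FPKM, whereas the ratio was 1.2 in BM LSC, 1.36 in SPL LSC, 0.575 in BL LSC and 0.99 in AT LSC.

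Ccl5, also named RANTES, is a ligand of Ccr1 and Ccr3 that T and NK cells are known to make. It was the ligand that fell: 79.5 FPKM in NBM against 12.4 in BM LSC, 19.5 in SPL LSC, 23.3 in BL LSC and 15.2 in AT LSC. The lower bound of NBM, 53.8, lay above the upper bound of every LSC group (at most 33). The fall from NBM in the authors' deposited table was -2.69 ± 0.36 in BM LSC (q = 7.94e-12), -2.39 ± 0.45 in AT LSC (q = 2.78e-06), -2.03 ± 0.44 in SPL LSC (q = 8.37e-05) and -1.77 ± 0.38 in BL LSC (q = 6.72e-05). None of the 6 site comparisons passed in the authors' deposited table, the nearest being BL over BM LSC (0.91 ± 0.40, q = 0.093), which passed relative to the median gene (1.28, q = 0.0124). Ccl5 spans chr11:83525779-83530518 on the minus strand. T cell receptor genes moved with it: Cd3e stood at 14.9 FPKM in NBM and at 0.21 to 1.98 in LSC, and Cd3g at 12.5 and 0.272 to 1.71. Of 12 T and NK cell markers, 9 were lower in BM LSC than in NBM, 8 in BL LSC, 8 in AT LSC and 7 in SPL LSC. Of all tested genes, 7.85%, 22.9%, 15.5% and 6.19% were lower, in the same order. The summed FPKM of the 12 markers went the other way, 185 in NBM and 297 to 548 in LSC. It did so through Nkg7 (110 in NBM, 130 to 329 in LSC) and Gzmb (18.4 and 96.9 to 238). The part of T and NK cells in the Ccl5 difference was not tested, and in bulk RNA fewer cells of a type and less RNA per cell cannot be told apart.

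Neighbouring ligand genes of the cluster moved in different directions. The starts of Ccl9, Ccl6, Ccl3 and Ccl4 lie 48.1, 62.6, 118.8 and 132.1 kb from that of Ccl5. Ccl5 was lower than NBM at every site, Ccl9 and Ccl6 were higher at every site, Ccl3 at 3 sites and Ccl4 in AT LSC alone. These 4 comparisons share the NBM libraries.

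**Figure D2:**
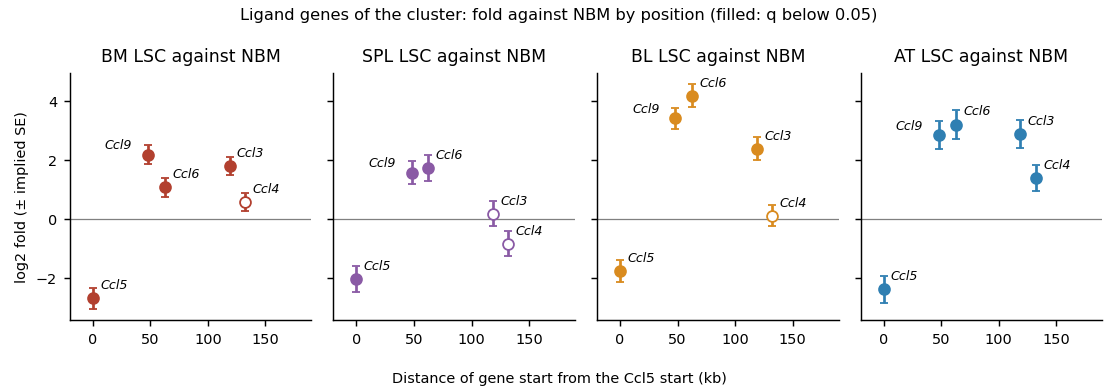
Log2 fold over NBM (± implied SE) of 5 neighbouring ligand genes against the distance of their start from that of Ccl5 (kb), in a panel for each LSC site; filled points have q below 0.05. Ccl5 at distance 0 lies below 0 in all 4 panels, and Ccl9 and Ccl6, at 48.1 and 62.6 kb, lie above 0 in all 4.

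Ccl2, the monocyte chemoattractant that binds Ccr2, was low: 2.9 FPKM in NBM, 3.75 in BM LSC, 1.11 in SPL LSC, 1.66 in BL LSC and 8.59 in AT LSC. The gene lies apart from the other ligands (chr11:82035577-82037452, plus strand, at -1494.9 kb from the start of Ccl5) and overlaps the antisense gene Gm17268, whose reads cannot be told apart without strand. AT LSC was the high group, with bounds of 4 to 13.2 that overlap those of NBM and BM LSC, and its estimated count of 537 compares with 22.1 to 155 elsewhere. AT LSC exceeded SPL LSC by 2.95 ± 0.65 (q = 9.74e-05), BL LSC by 2.37 ± 0.51 (q = 6.95e-05) and NBM by 1.57 ± 0.49 (q = 0.011) in the authors' deposited table. AT over BM LSC missed the threshold in the authors' deposited table (1.20 ± 0.48, q = 0.0593) and passed relative to the median gene (1.67, q = 0.00517). SPL LSC was lower than BM LSC, at -1.76 ± 0.59 (q = 0.0195) in the authors' deposited table. The fold of BL over BM LSC, -1.18 ± 0.44 (q = 0.0397) in the authors' deposited table, lost its call relative to the median gene (-0.81, q = 0.22). That of SPL LSC over NBM (-1.39 ± 0.60, q = 0.0867 in the authors' deposited table) passed when scaled to the upper quartile (-1.80, q = 0.0195) or to total counts (-1.66, q = 0.0351).

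Tnf, Il1b and Cd14, reference genes of the inflammatory response, are listed beside Ccl2, Ccl3 and Ccl4. The part of such a response in the levels of these ligands was not tested. Tnf stood at 7.86 FPKM in AT LSC and 1 to 2.88 in the other groups, and Il1b at 57.9 against 3.75 to 7.88. Cd14, a lipopolysaccharide co-receptor of monocytes, was high in AT and BL LSC (211 and 191 FPKM) and at 8.81 to 21.9 elsewhere. In the authors' deposited table AT LSC exceeded BL LSC in Tnf by 2.97 ± 0.50 (q = 1.99e-07) and in Il1b by 2.88 ± 0.52 (q = 9.59e-07).

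Among the 9 genes Ccr1, which myeloid cells use to sense Ccl3, Ccl5, Ccl6 and Ccl9, had the narrowest range, 2.86-fold between its highest and lowest group. It stood at 14.6 FPKM in NBM, 14.7 in BM LSC, 11 in SPL LSC, 31.6 in BL LSC and 26.1 in AT LSC. BL and AT LSC were the high groups, and no neighbours in the order differed beyond their spread. BL LSC exceeded SPL LSC by 1.52 ± 0.44 (q = 0.00528), BM LSC by 1.11 ± 0.36 (q = 0.0143) and NBM by 1.11 ± 0.35 (q = 0.0121) in the authors' deposited table. AT LSC missed the threshold against each of the same groups in the authors' deposited table (q = 0.0575, 0.163 and 0.154) and passed against each relative to the median gene, by 1.76 (q = 0.00425), 1.31 (q = 0.0162) and 1.30 (q = 0.0162). The Ccr1 gene lies at chr9:123962126-123968692, minus strand. Its start is 133.3 kb from that of Ccr2.

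Ccr2, the receptor that monocytes need to leave the marrow, stood at 41.7 FPKM in NBM, 26.4 in BM LSC, 12.4 in SPL LSC, 43.2 in BL LSC and 16 in AT LSC. BL LSC and NBM were high, SPL and AT LSC were low, and neighbours in the order did not differ beyond their spread. SPL LSC was lower than NBM (-1.75 ± 0.39, q = 0.000153) and than BM LSC (-1.09 ± 0.42, q = 0.0454) in the authors' deposited table. BL LSC exceeded SPL LSC by 1.80 ± 0.45 (q = 0.000773) in the authors' deposited table. AT LSC was lower than BL LSC (-1.43 ± 0.49, q = 0.0205 in the authors' deposited table), a call that held relative to the median gene (-1.33, q = 0.039) and missed the threshold when scaled to total counts (q = 0.0691). AT against NBM (-1.38 ± 0.44, q = 0.0116 in the authors' deposited table) lost its call relative to the median gene (-0.92, q = 0.139). BL over BM LSC, which did not pass in the authors' deposited table (0.71 ± 0.36, q = 0.157), passed relative to the median gene (1.08, q = 0.02). The ratio of Ccr2 to Ccr1 FPKM was 2.85 in NBM, 1.8 in BM LSC, 1.12 in SPL LSC, 1.37 in BL LSC and 0.613 in AT LSC. The Ccr2 gene lies at chr9:124102183-124109140 on the plus strand.

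Ccr7 guides T cells and mature dendritic cells to lymph nodes by Ccl19 and Ccl21. It stood at 4.97 FPKM in NBM, 0.435 in BM LSC, 3.71 in SPL LSC, 0.807 in BL LSC and 2.78 in AT LSC. NBM, SPL and AT LSC overlapped in their bounds, and BM and BL LSC, with upper bounds of 0.67 and 1.2, were low. The fold over NBM in the authors' deposited table was -3.51 ± 0.47 in BM LSC (q = 8.44e-12) and -2.62 ± 0.44 in BL LSC (q = 1.1e-07), and SPL and AT LSC did not pass (q = 0.702 and 0.304). SPL LSC exceeded BM LSC by 3.09 ± 0.65 (q = 4.32e-05) and AT LSC exceeded BM LSC by 2.67 ± 0.62 (q = 0.000235) in the authors' deposited table. AT LSC exceeded BL LSC by 1.78 ± 0.59 (q = 0.0172) in the authors' deposited table. BL against SPL LSC was -2.20 ± 0.63 (q = 0.00425) in the authors' deposited table, and it missed the threshold when scaled to the upper quartile of FPKM above 0 (q = 0.125). Ccr7 lies at chr11:99144199-99155077, minus strand. Its ligand gene Ccl19 was at 0.872 FPKM in NBM and 0 to 0.141 in LSC. That Ccl19 entry lies on the scaffold chr4_JH584294_random. Ccl21a and Ccl21b had no entry, and Ccl21c was at 0 FPKM in every group.

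Markers of lymphoid and dendritic cells moved with Ccr7 in part. The summed FPKM of 6 B cell markers was 21.3 in NBM, 3.2 in BM LSC, 14.5 in SPL LSC, 4.7 in BL LSC and 1.61 in AT LSC. It was high in NBM and SPL LSC, as Ccr7 was, and lowest in AT LSC, where Ccr7 was 2.78 FPKM. The sum of 10 dendritic cell markers was 28.3 in NBM and 3.21 to 7.53 in LSC, with 9, 7, 8 and 7 of them lower than NBM in BM, SPL, BL and AT LSC. Of all tested genes, 7.85%, 6.19%, 22.9% and 15.5% were lower, in the same order. Cd83, a gene of activated dendritic and B cells, was closest to Ccr7 in pattern over the 5 groups, at 10.6, 1.12, 8.02, 2.99 and 8.12 FPKM in NBM, BM, SPL, BL and AT LSC. The part of these cells in the Ccr7 differences was not tested.

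**Figure D3:**
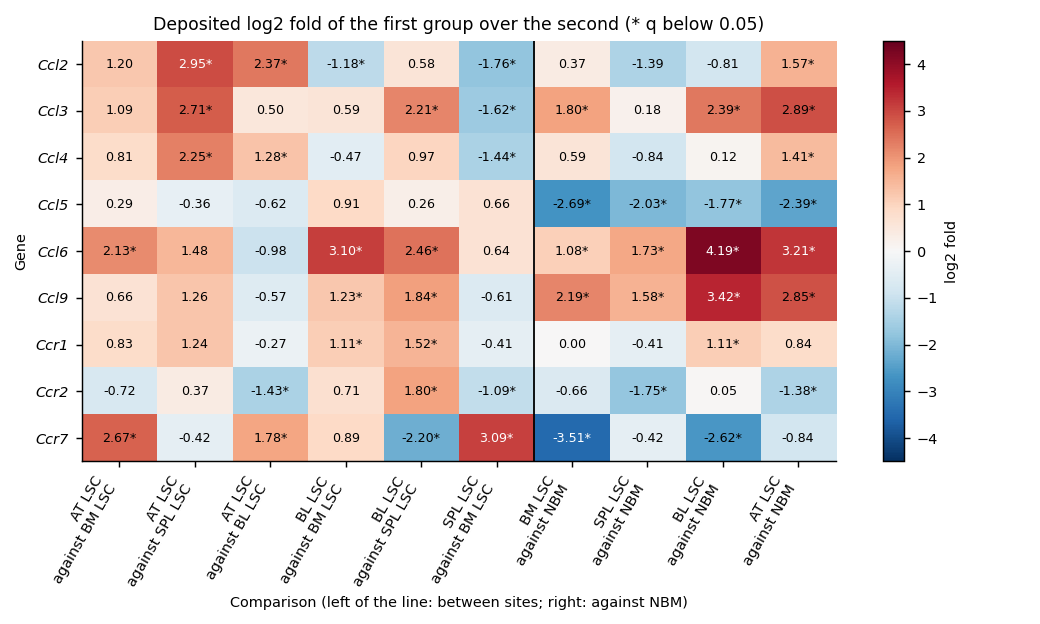
Log2 fold of the first group over the second for the 9 genes (rows) in 10 comparisons (columns), as deposited, with an asterisk where q was below 0.05. The largest fold is 4.19 for Ccl6 in BL LSC over NBM, and the lowest is -3.51 for Ccr7 in BM LSC over NBM.

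Counted by comparison, the members that passed in AT LSC against NBM, SPL or BM LSC were mostly higher there. Against NBM, 5 of 9 were higher in AT LSC (Ccl2, Ccl3, Ccl4, Ccl6 and Ccl9), where 7.94% of all tested genes were higher, and 2 were lower (Ccl5 and Ccr2), where 15.5% of all were. The members' median fold was 1.41 in AT LSC over NBM, beside -0.46 over all tested genes. Against SPL LSC, 3 were higher (Ccl2, Ccl3 and Ccl4; 7.2% of all genes) and 0 lower (17.9% of all). The members' median there was 1.26, beside -0.52. Against BM LSC, 2 were higher (Ccl6 and Ccr7; 7.24% of all genes) and 0 lower (15.5% of all), with a median of 0.83 beside -0.48. Relative to the median gene these counts became 6 higher and 1 lower against NBM, 6 and 0 against SPL LSC, and 6 and 0 against BM LSC. The shares of all genes given here are those before that step, so these larger counts have no matching share. Against BL LSC, 3 were higher (Ccl2, Ccl4 and Ccr7; 4.01% of all genes) and 1 was lower (Ccr2; 2.51% of all), and the members' median of -0.27 stood near the -0.11 of all genes.

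BL LSC carried the highest Ccl6, Ccl9, Ccr1 and Ccr2 in FPKM. Against NBM, 4 members were higher (Ccl3, Ccl6, Ccl9 and Ccr1; 11.5% of all genes) and 2 lower (Ccl5 and Ccr7; 22.9% of all), with a median of 0.12 beside -0.36. Against SPL LSC, 5 were higher (Ccl3, Ccl6, Ccl9, Ccr1 and Ccr2; 10.2% of all) and 1 was lower (Ccr7; 23.1% of all), with a median of 1.52 beside -0.40. Against BM LSC, 3 were higher (Ccl6, Ccl9 and Ccr1; 10.5% of all) and 1 was lower (Ccl2; 22.8% of all), with a median of 0.89 beside -0.37. Relative to the median gene, the comparison with BM LSC had 5 higher and 0 lower, and that with SPL LSC 6 and 1, again without a matching share of all genes.

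SPL and BM LSC were the pair with the fewest genes called of the 10 comparisons. In SPL over BM LSC 1.19% of all tested genes were higher and 1.5% lower, whereas 1 of the 9 members was higher (Ccr7) and 4 were lower (Ccl2, Ccl3, Ccl4 and Ccr2). The members' median fold was -0.61 there, beside 0.12 over all genes. In BM LSC over NBM 3 were higher (Ccl3, Ccl6 and Ccl9; 8.17% of all) and 2 lower (Ccl5 and Ccr7; 7.85% of all), with a median of 0.37 beside -0.03. In SPL LSC over NBM 2 were higher (Ccl6 and Ccl9; 6.37% of all) and 2 lower (Ccl5 and Ccr2; 6.19% of all), with a median of -0.42 beside 0.11. Under upper quartile or total count scaling, Ccl2 and Ccl4 joined the latter, for 4 lower, without a share of all genes under that scaling.

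Of the other CC ligands, 8 of 16 reached 1 FPKM in a group, and of the other CC and atypical receptors 7 of 13 did. Ccl24, an eosinophil attractant that acts on Ccr3, stood at 23.2 FPKM in NBM and 0.975 to 5.99 in LSC, and it was lower than NBM at all 4 sites. Ccl22, a ligand of Ccr4, fell from 2.7 FPKM in NBM to 0.105 to 0.575, also at all 4 sites. Ccl17, which shares that receptor, stood at 9.4 FPKM in NBM, 4.77 in BM LSC, 5.27 in SPL LSC, 1.17 in BL LSC and 2.36 in AT LSC, and was lower than NBM in BL and AT LSC. Ccl1, a ligand of Ccr8, was highest in BM LSC (9.89 FPKM, against 0.309 to 3.05 elsewhere), and its own receptor Ccr8 was at 3.79 FPKM in NBM and 0.137 to 0.321 in LSC. Ccl7, which acts on Ccr2 as Ccl2 does, was at 2.62 FPKM in BM LSC and 2.5 in AT LSC, against 0.251 to 0.596 in the other groups.

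Several relatives were at their highest in AT LSC. Ccl11, an eosinophil attractant, was at 1.75 FPKM there and at most 0.023 elsewhere. Ackr1, listed under its older symbol Darc and known as a chemokine-binding receptor of venules and red cells, was at 3.71 FPKM and at most 0.292 elsewhere. Ccrl2, an atypical receptor, stood at 22.2 FPKM in AT LSC, 10.3 in BL LSC and 3.92 to 5.43 in the others. In the authors' deposited table Ccrl2 was higher in AT LSC than in NBM by 2.06 ± 0.44 (q = 6.95e-05). Most stromal markers were highest in AT LSC: their summed FPKM was 29.5 there and 1.1 to 2.86 in the other groups. Of the 8, 6 were higher than in NBM, as were 7.94% of all tested genes. Decorin (Dcn) made up 21 FPKM of the sum in AT LSC and was at most 0.0282 elsewhere. Its test against SPL LSC did not pass in the authors' deposited table (q = 0.181). Pdgfrb was lowest in AT LSC, at 0.502 FPKM against 2.09 in NBM and 2.21 in BM LSC. Col1a2 was highest in SPL LSC, at 1.06 FPKM against 0.425 in AT LSC. The 8 adipocyte markers summed to 4.32, 3.06, 2.79, 9.98 and 8.42 FPKM in NBM, BM, SPL, BL and AT LSC, mostly through Pparg (4.72 in BL and 5.84 in AT LSC) and Lipe (5.16 and 1.89), while Adipoq was at 0.0304 FPKM or less in every group. Cidec stood at 0.263 FPKM in AT LSC and at most 0.013 elsewhere, higher than in NBM, BM and BL LSC. The 6 endothelial markers summed to 13.9, 11.6, 9.98, 24.7 and 14.4 FPKM, mostly Pecam1. In AT LSC 2 were higher than in BL LSC and 2 than in BM LSC, with 0 lower in either. Against SPL LSC 1 was higher and 1 lower, and against NBM 1 was higher and 0 lower. Cdh5 stood at 0.276 FPKM in AT LSC and at most 0.00546 in the other LSC groups, with 0.342 in NBM. Tek was at 0.272 FPKM in AT LSC, 0.0175 in BL LSC and 0.273 in NBM. Vwf was at 0.39 FPKM in AT LSC, 1.79 in SPL LSC and 0.129 in NBM. The part of stromal, adipose and endothelial cells in the Ccl2, Ccl11 and Ackr1 levels of AT LSC was not tested.

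**Figure D4:**
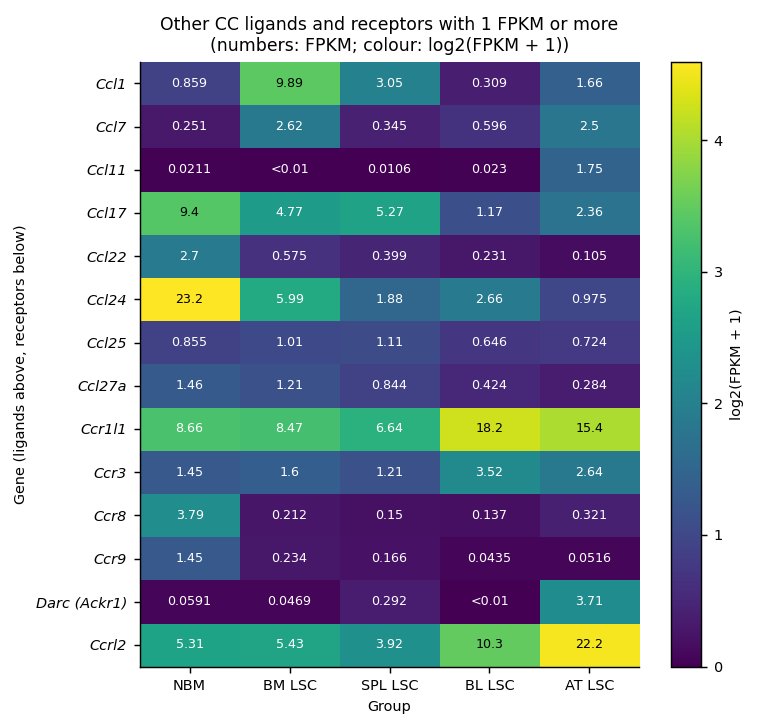
FPKM (numbers) of other CC ligand and receptor genes with 1 FPKM or more in at least 1 of the 5 groups, coloured by log2(FPKM + 1). Ccl24 is highest in NBM at 23.2, Ccl1 in BM LSC at 9.89 and Ccrl2 in AT LSC at 22.2.

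Counts over the whole lists were mixed. Of 22 CC ligands found, 7 were higher and 5 lower in AT LSC than in NBM (18 tested), with a median fold of -0.24 beside -0.46 over all genes. The same list had 3 higher and 6 lower in BL LSC, 3 and 5 in SPL LSC and 5 and 4 in BM LSC, all against NBM. Its median fold in these was -1.77, -0.79 and -0.27, below the -0.36, 0.11 and -0.03 of all genes. Of 16 receptors, 3 were higher and 5 lower in AT LSC, 4 and 4 in BL LSC, 0 and 4 in SPL LSC and 1 and 4 in BM LSC, against NBM, and the AT LSC count became 6 and 2 relative to the median gene. The receptors' median fold was 0.83, 0.05, -0.43 and -0.66 in AT, BL, SPL and BM LSC, beside -0.46, -0.36, 0.11 and -0.03. Of 26 genes that carry the signal of these receptors (G proteins, kinases, exchange factors, arrestins and regulators of G protein signalling), 6 were higher and 3 lower in BL LSC, 1 and 3 in AT LSC, 1 and 8 in SPL LSC and 2 and 6 in BM LSC, against NBM. Over all tested genes the shares higher and lower were 11.5% and 22.9% in BL LSC, 7.94% and 15.5% in AT LSC, 6.37% and 6.19% in SPL LSC and 8.17% and 7.85% in BM LSC. They hold for the deposited calls and not for counts relative to the median gene. The median fold of the signalling genes was 0.31, 0.11, -0.35 and -0.23 in the same order, beside -0.36, -0.46, 0.11 and -0.03 over all genes. Pik3r5 and Pik3r6, subunits of the phosphoinositide 3-kinase that G proteins activate, were at 7.42 and 5.27 FPKM in BL LSC and at 0.912 and 0.52 in BM LSC. Grk5, a kinase that phosphorylates active receptors, was at 1.82 FPKM in BL LSC, 0.904 in AT LSC and 0.109 to 0.151 elsewhere. Rgs1, which ends G protein signals, was lowest in SPL LSC at 9.83 FPKM, against 35.1 to 72.4 in the other groups.

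Among LSC groups, monocyte and macrophage sums were highest in BL LSC and next in AT LSC, as were Ccl6, Ccl9 and Ccr1 in FPKM. NBM did not follow: its monocyte sum was above that of AT LSC, while its Ccl6 and Ccl9 were the lowest of the 5 groups. The summed FPKM of 9 monocyte markers was 398 in NBM, 178 in BM LSC, 176 in SPL LSC, 526 in BL LSC and 349 in AT LSC. In BL LSC 7 of the 9 were higher than in BM LSC, and in AT LSC 6 were, with 0 lower in either. Of all tested genes, 10.5% and 7.24% were higher in these comparisons and 22.8% and 15.5% lower. Against NBM, 6 monocyte markers were higher and 1 was lower in BL LSC, and 4 and 1 in AT LSC. In BM and SPL LSC 0 were higher than in NBM, and 6 and 3 were lower. Among the 9 monocyte markers Treml4 stood at 48.7 FPKM in BL LSC and 30.1 in AT LSC, and at 1.8 to 6.51 elsewhere. By contrast, F13a1 stood at 40.8 FPKM in NBM and 2.84 to 8.55 in LSC, lower than NBM in every LSC group. Cx3cr1 was at 3.59 FPKM in AT LSC, 3.69 in BM LSC and 20.3 in BL LSC. The 11 macrophage markers summed to 103, 80.4, 56.9, 297 and 154 FPKM in NBM, BM, SPL, BL and AT LSC, with Csf1r at 22.4, 3.38, 5.02, 54.2 and 22.9. Against NBM, 1 macrophage marker was higher and 5 were lower in AT LSC (median fold -1.38), and 4 were higher and 4 lower in BL LSC (median -0.66), with Cd163 and Mrc1 lower in both. In BM LSC 1 was higher and 8 were lower, and in SPL LSC 1 and 4. Emr1, also named Adgre1, was higher than NBM at every site. It stood at 4.84, 40.2, 16.9, 122 and 46 FPKM in NBM, BM, SPL, BL and AT LSC. The neutrophil markers found, 9 of 10, summed to 1040, 534, 420, 884 and 2149, of which S100a8 and S100a9 made up 1330 and 707 FPKM in AT LSC. In AT against BL LSC, 3 of these 9 were higher and 2 lower (median fold -0.79), beside 4.01% and 2.51% of all tested genes. Mmp8 had 36.5 FPKM in BL LSC beside 9.91 in AT LSC. The monocyte sum was mostly Ly6c2, at 301 FPKM in NBM, 145 in BM LSC and 139 in SPL LSC. The part of monocytes, macrophages and neutrophils in the differences of Ccl6, Ccl9 and Ccr1 between groups was not tested. As for the LSC label, Kit, the stem cell factor receptor, was at 1.64 to 4.1 FPKM in LSC and 10.4 in NBM, Ly6a (Sca-1) at 97.9 to 231 and 199, and Hoxa9 at 2.03 to 3.65 and 0.771. The authors' test of Kit failed for BM LSC against NBM. Whether reads of NUP98-HOXA9 count to Hoxa9 was not tested. Gata2 stood at 2.39 to 10.9 FPKM in LSC and 1.78 in NBM, and Cd34 at 7.92 to 24.3 and 40. Of 10 stem and progenitor markers, 2 were higher and 2 lower than NBM in BM LSC, and 2 and 3 in SPL LSC. In BL LSC and in AT LSC 1 was higher and 4 were lower. Of all tested genes, 8.17% were higher and 7.85% lower than NBM in BM LSC, and 6.37% and 6.19% in SPL LSC. The shares were 11.5% and 22.9% in BL LSC and 7.94% and 15.5% in AT LSC. S100a8, a gene of mature neutrophils and monocytes, was at 272 FPKM or more in every group.

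The genes nearest to each member in pattern were ranked among 5114 genes at 5 FPKM or more in a group, by the root mean square difference of log2(FPKM + 1) profiles over the 5 groups, each centred on its own mean. Ccr1 had the closest match of the 9, its paralog Ccr1l1 at 0.04, and Pnpla2 was at 0.05. Genes near to Ccr2 included Mgl2 (0.21) and Akna (0.27). Ccl5 was nearest to Ifi205 (0.07), Mnda (0.10) and Gm8369 (0.13), and Ccl6 to Slpi (0.16), Rnase4 (0.35) and Vmn2r27 (0.39). Slpi, a secreted inhibitor of leukocyte proteases, stood at 26.6, 67, 83.9, 409 and 230 FPKM in NBM, BM, SPL, BL and AT LSC. Ccl9 was nearest to Nov (0.18), Tmem51 (0.21) and Furin (0.23), and Ccl4 to Slc3a2 (0.23), Ninj1 (0.23) and Gm6568 (0.28). Ccl2 was nearest to Trib3 (0.25), Tnf (0.27) and Chac1 (0.29), Ccl3 to Adora2b (0.32), Cystm1 (0.34) and Sqstm1 (0.35), and Ccr7 to Cd83 (0.24), Snora17 (0.37) and Snora7a (0.38). With 5 groups such likeness describes these profiles only.

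Ccr1 and its relatives kept close ratios across groups. Ccr1l1 over Ccr1 ran from 0.576 to 0.601 in FPKM and Ccr3 over Ccr1 from 0.0988 to 0.112. By contrast, Ccr2 over Ccr1 ran from 0.613 to 2.85. In the GENCODE M21 transcripts Ccr1 shared 0 stretches of 50 bases with Ccr1l1 and 0 with Ccr3, and 7 and 23 stretches of 25 bases. Ccl3 shared 0 of either length with Ccl4, and Ccl6 and Ccl9 shared 0 of 50 bases and 1 of 25.

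**Figure D5:**
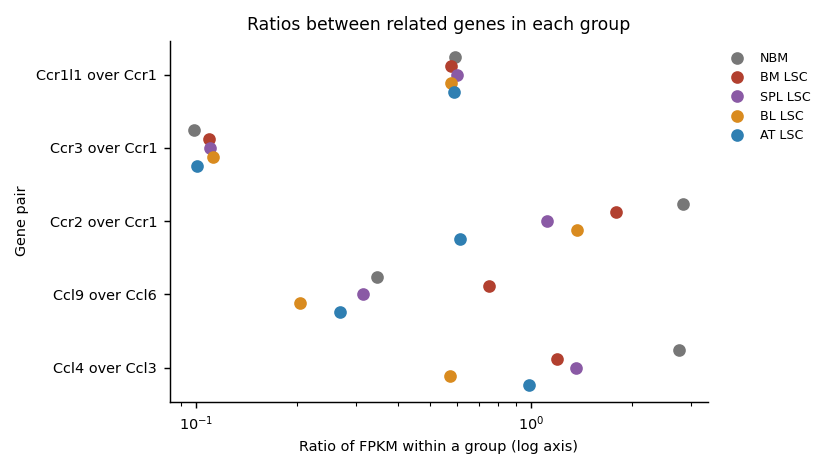
Ratio of FPKM (log axis) between related genes within each of the 5 groups, with a coloured point per group. The points of Ccr1l1 over Ccr1 lie between 0.576 and 0.601, while those of Ccr2 over Ccr1 spread from 0.613 in AT LSC to 2.85 in NBM.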

How the data were processed

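Per the labels, the kits were RNeasy Plus for RNA, and low-input SMARTer and Nextera XT for the libraries. Per the submitters' processing notes, Trimmomatic 0.32, Cufflinks 2.0.2 and Cuffdiff were run and the build was mm10. Aligner, annotation, strand setting and Cuffdiff version were not given in the sources used here. FPKM values, pooled over the 3 libraries of a group, and their bounds were deposited by the authors. Estimated counts per gene and group were deposited by the authors too, on a scale that is not stated to be a sum or a mean, so counting intervals are not given. For each pair of groups the authors deposited a fold on the log2 scale and a test statistic, kept here as scores because infinite folds are stored as a sentinel number, and a p-value and a q-value.

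A test per library had been planned; since no column held a library, the authors' own test was used, as the design provided. The implied SE equalled that from the bounds within 1% in 100% of tested genes, and a Benjamini-Hochberg adjustment over all comparisons gave the deposited q-value within 1.7e-06. The recalculation of calls was tested on simulated data. Alternatives centred each comparison's folds on the median, upper quartile or total count and adjusted again, changed the q threshold, the pseudocount or the scale. The named genes were all 9 members, relatives at 1 FPKM or more in a group, up to 4 called genes of a list with the smallest q, the 3 genes nearest each member, and Tnf, Il1b and Cd14. Other markers, S100a8 among them, and Ccl19 were named after their values were seen. Some items that the rule would name are not reported here. The members and lists were chosen with earlier results of these data known. Motifs were searched in RefSeq promoter windows (GRCm38.p6), and shared stretches in GENCODE M21. Python 3.11.15, pandas 2.3.3, numpy 2.4.6, scipy 1.17.1 and matplotlib 3.10.9 were used.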

Additional observations from a re-analysis of the deposited data

Results flagged for a closer look

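The difference of a site from NBM was not the same at all sites for 8 of the 9 genes, by the authors' direct test of site against site. The exception was Ccl5. The share of all tested genes that differed between any of the sites was not calculated, so the count of 8 has no matching share. By comparison, BL against BM LSC had 10.5% of all tested genes higher and 22.8% lower. SPL against BM LSC had 1.19% higher and 1.5% lower. The values listed below are log2 folds of the first site over the second, from the authors' deposited table.

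Ccl2 differed by 2.95 between AT and SPL LSC, 2.37 between AT and BL LSC, -1.18 between BL and BM LSC and -1.76 between SPL and BM LSC. Ccl3 differed by 2.71 between AT and SPL LSC, 2.21 between BL and SPL LSC and -1.62 between SPL and BM LSC. For Ccl4 the values were 2.25 for AT over SPL LSC, 1.28 for AT over BL LSC and -1.44 for SPL over BM LSC. Ccl6 differed by 2.13 between AT and BM LSC, 3.10 between BL and BM LSC and 2.46 between BL and SPL LSC, and Ccl9 by 1.23 between BL and BM LSC and 1.84 between BL and SPL LSC.

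Ccr1 differed by 1.11 between BL and BM LSC and 1.52 between BL and SPL LSC. For Ccr2 the values were -1.43 for AT over BL LSC, 1.80 for BL over SPL LSC and -1.09 for SPL over BM LSC. Ccr7 differed by 2.67 between AT and BM LSC, 1.78 between AT and BL LSC, -2.20 between BL and SPL LSC and 3.09 between SPL and BM LSC. Over NBM, the Ccr7 fold of BM LSC was -3.51, while SPL LSC had a fold of -0.42 over NBM, which did not pass.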

How the results depend on the processing

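No paired analysis was possible because the deposited columns hold 1 pooled value per group; for the same reason leaving out each replicate, a replicate block and a test per library were not run. No fold called among the 90 changed direction under any of these settings. Relative to the median gene, 77 kept their side of the threshold, 2 lost a call and 11 gained 1. With a pseudocount of 1 on the log2 scale 81 moved by less than their SE and 9 by more, with 0.1 none of the 90 moved by more, and on estimated counts scaled to the group total (CPM) 87 moved by less and 3 by more. Counts of members called changed as follows, with no share over all genes given under these settings. AT against BM LSC went from 2 to 6 when centred on the median or upper quartile and 5 on the total count. AT against SPL LSC went from 3 to 6 under each of these, and to 5 when q was adjusted within the comparison. SPL LSC against NBM went from 4 to 6 under upper quartile and total count scaling, and BL against BM LSC from 4 to 6 under the upper quartile and 3 under the total count. At q below 0.01, AT against BL LSC went from 4 to 1, BL against BM LSC from 4 to 2, SPL against BM LSC from 5 to 3 and AT LSC against NBM from 7 to 4. Adjusted within the comparison, AT against BL LSC had 1 and SPL against BM LSC 2. By CPM the order of the groups was the same for 5 of 9 genes and the highest group for 8 of 9, the exception being Ccr1 (354 in AT and 352 in BL LSC). With a pseudocount of 0.1, 16 of the 27 nearest genes were the same. Relative to the level, the bounds of all 9 genes were wider in SPL and AT LSC than in NBM, BM and BL LSC, and SPL LSC had the fewest counts, so a fold that did not pass there is not shown to be 0.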
